A study of Danio rerio with 58 samples.

Results

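The DNA repair and damage signalling genes of zebrafish were followed by mRNA sequencing of whole embryos and larvae under chronic gamma irradiation. The genes came from a list of 53 symbols covering the main repair pathways, which was matched by lower-case symbol to the deposited counts. Of these, 52 were found among 32057 genes. The gene listed as mre11a carried the symbol mre11, and fanca was not analysed here. By role, 13 of the 52 act in homologous recombination, 3 form the MRE11-RAD50-NBN complex, 7 signal damage, 6 act in end joining, 7 in base excision and single-strand break repair, 9 in nucleotide excision repair, 4 in the Fanconi anaemia pathway, 2 in mismatch repair, and rad18 acts in post-replication repair.

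Ionizing radiation breaks DNA strands and oxidizes bases. Breaks of both strands are sensed by the MRE11-RAD50-NBN complex, signalled through the kinases ATM and ATR to the checkpoint kinases CHK1 and CHK2, and rejoined either by homologous recombination, which copies a sister chromatid and is used in S and G2 phase, or by end joining, which needs no template. Oxidized bases and breaks of one strand go to base excision repair, bulky lesions to nucleotide excision repair, crosslinks to the Fanconi anaemia pathway and replication errors to mismatch repair. Many of these genes, homologous recombination genes above all, are known to be transcribed mainly in dividing cells, and an embryo holds a falling share of such cells as its tissues differentiate.

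Embryos of the wild-type AB strain were exposed from 1 hpf (hours post fertilization) at 0.5, 5 or 50 mGy/h, or were kept as controls without irradiation, and each sample was a pool of whole embryos or larvae. At 24 hpf, 3 samples exposed at 0.5 mGy/h were set against 5 controls of irradiation batch I32, and 3 samples at 5 mGy/h and 3 at 50 mGy/h against 3 controls of batch I17. At 48 hpf the numbers were 3 at 0.5 mGy/h against 4 controls in batch I10, and 2 at 5 mGy/h and 3 at 50 mGy/h against 3 controls in batch I17. At 96 hpf they were 3 at 0.5 mGy/h against 3 controls in batch I10, and 3 at 5 mGy/h and 2 at 50 mGy/h against 3 controls in batch I17. The lowest dose rate was never in the batch of the higher ones, so dose rate and batch cannot be told apart between them. The labels do not say whether the pools of a group came from separate crosses. The study pooled clutches before irradiation, calls the dishes of a condition technical replicates and calls independent repeats of the whole irradiation biological ones. Its supplement calls the pools taken for RNA biological replicates. Each comparison lay inside 1 batch, so the p-values measure the spread between pools and not that between irradiation batches. In whole embryos, fewer cells of a type and less RNA per cell cannot be told apart.

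The 58 libraries held between 28278920 and 49971607 counts on genes, and 46 of them, those kept in the clustering of the study, were compared. Read pairs mapping to more than 1 place made up 14.9% to 25.5% and were not counted, with the highest shares in replicate 9 at 96 hpf and replicate 5 at 48 hpf, both exposed at 5 mGy/h. Every one of the 52 genes had at least 2 counts in every library. The lowest were palb2 (2 counts), xrcc2 (3 counts) and pms2 (3 counts). Levels are given as CPM (counts scaled to a common library size, with TMM factors over all libraries). A gene was called where edgeR's quasi-likelihood test gave an adjusted p-value under 0.01 over all genes and a fold change of at least 1.5.

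The repair genes declined with stage in animals that were never irradiated. Between 24 and 48 hpf, all 52 genes were lower on average in the batch I17 controls at 48 hpf, and 30 were called lower and 0 higher. Between 48 and 96 hpf, 23 were called lower and 1 higher in batch I17, and 27 lower and 1 higher in batch I10. Over all genes tested, 13.3%, 20.1% and 21.2% were called lower at these steps, and 19.3%, 23.2% and 24.4% were called higher. These shares are also the background of the counts by role given below. The median log2 change of the repair genes was -0.77, -0.56 and -0.66, which is a median fold of 0.584, 0.679 and 0.632. The 2 batches ordered the genes in a like manner at the later step, with 48 of the 52 changes of the same sign. Across genes, which are not independent replicates and which share the 2 sets of libraries, the changes of the 2 batches had a Pearson r of 0.72 and a Spearman rho of 0.70.

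**Figure D1:**
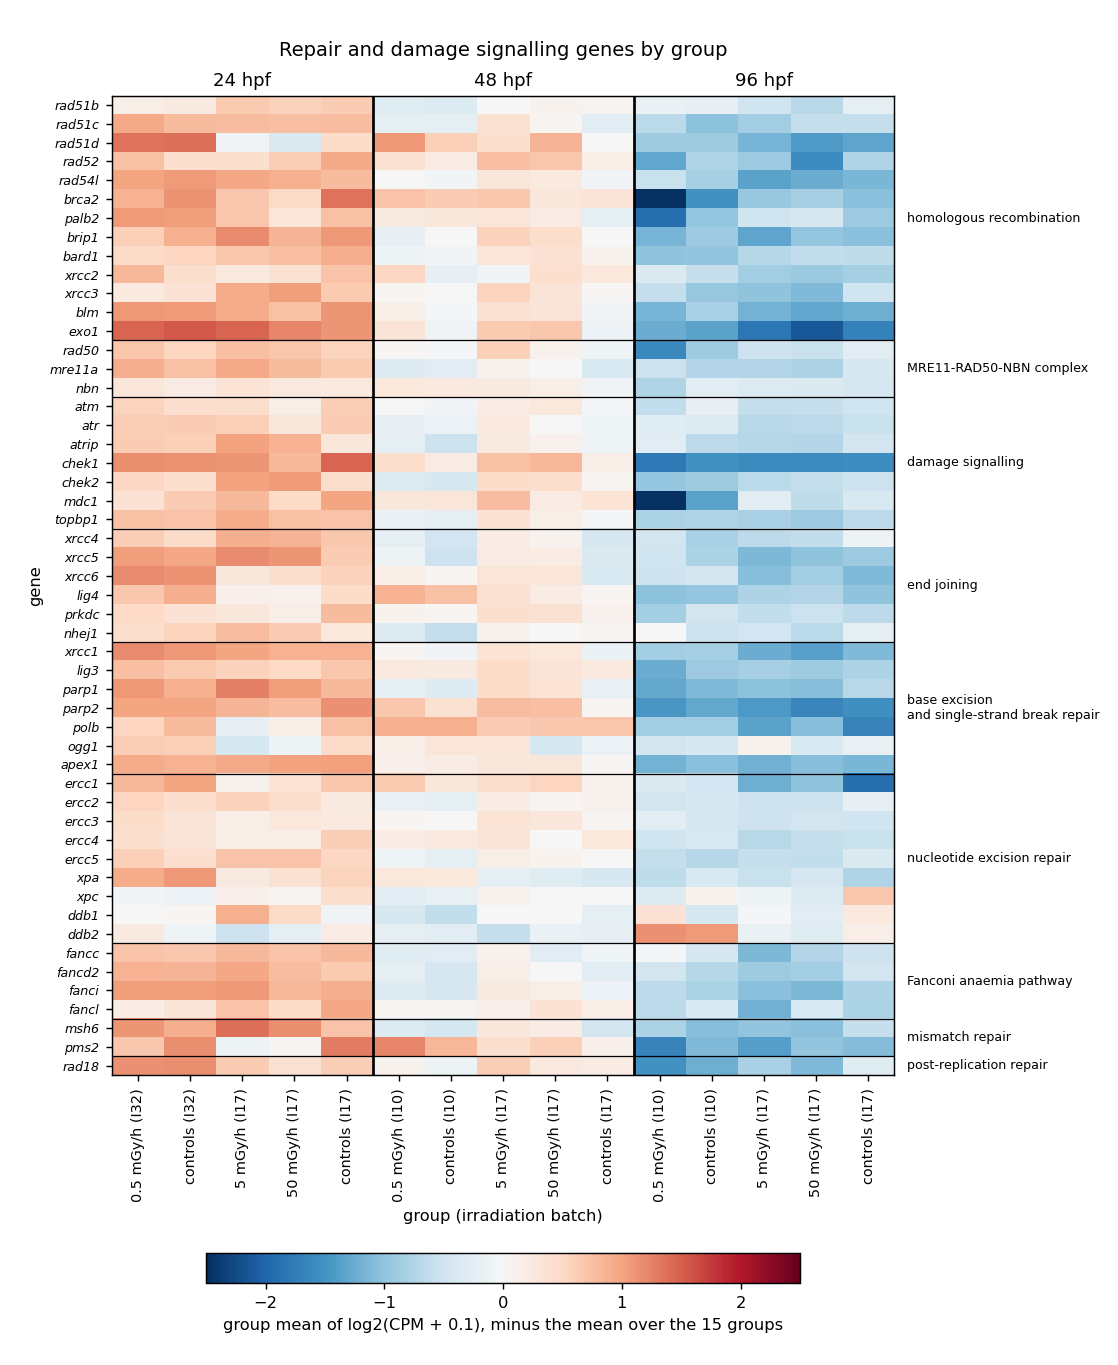
Heat map of the 52 repair genes (rows, by role) in the 15 groups of stage, batch and dose rate (columns). Colour gives the group mean of log2(CPM + 0.1) minus its mean over the 15 groups. Nearly every row is highest at 24 hpf and lowest at 96 hpf, and the rows for ddb2, xpc and ddb1 are among those that are not.

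The genes called lower were not the same at each step. The lists of 30 genes (24 to 48 hpf) and 23 genes (48 to 96 hpf, batch I17) shared 17. From 24 to 48 hpf in batch I17 and from 48 to 96 hpf in both batches, 12 genes were called lower each time: parp2, xrcc1, apex1, chek1, mdc1, exo1, blm, brip1, brca2, rad54l, bard1 and pms2. These act in recombination (exo1, blm, brip1, brca2, rad54l and bard1), checkpoint signalling (chek1 and mdc1), single-strand break repair (parp2, xrcc1 and apex1) and mismatch repair (pms2). No step called ercc2, ercc3, ercc5 or ddb1, all of nucleotide excision repair. This was not particular to that pathway, as nbn and nhej1, of other roles, were called at no step either. The exposed groups of batch I17 showed the same order of stages: 40 of 52 genes at 5 mGy/h, 42 at 50 mGy/h and 48 in the controls had lower means at both steps, and the median ratio of the mean at 96 hpf to that at 24 hpf was 0.364, 0.382 and 0.377.

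**Figure D2:**
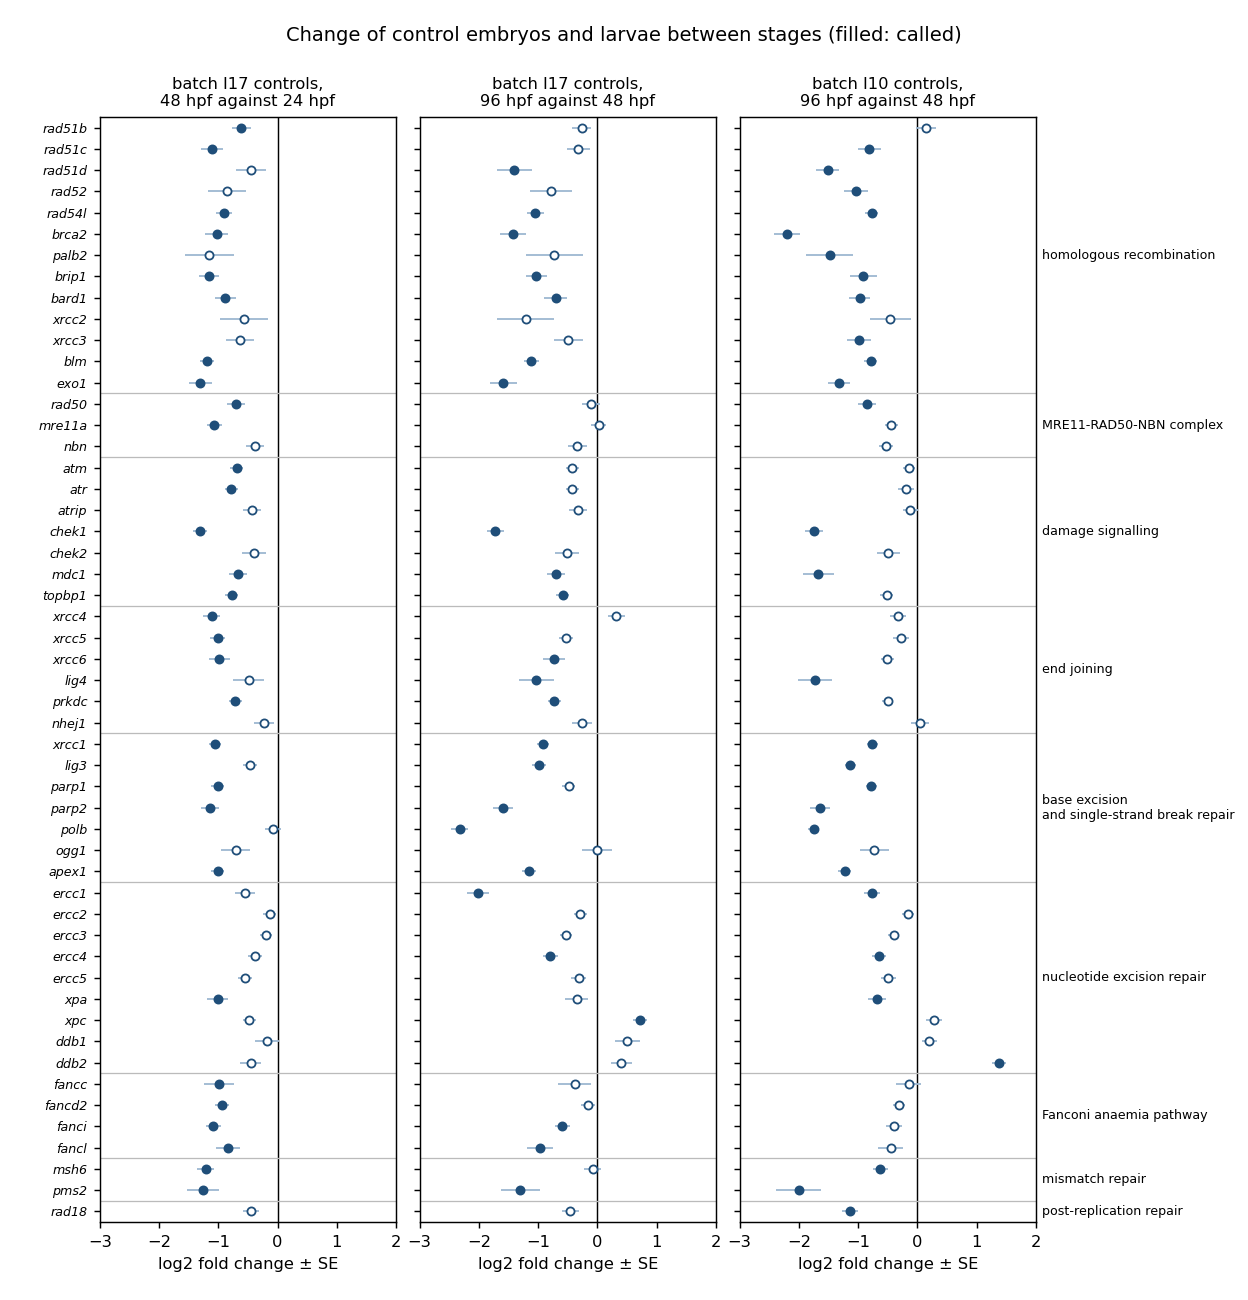
Log2 fold changes (horizontal axis, later over earlier stage) of the repair genes (rows, by role) in control animals, with bars of 1 SE, for 24 to 48 hpf and for 48 to 96 hpf in 2 batches. Points called at a fold of at least 1.5 and an adjusted p-value under 0.01 are filled. The points lie left of 0 for all 52 genes at the earlier step, and xpc and ddb2 are the points called to the right of 0.

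Damage signalling genes had lower means at each step, and chek1 fell furthest. chek1 encodes CHK1, the kinase that holds cells with stalled forks or broken DNA out of mitosis. Its levels in the batch I17 controls were 21.9, 19.4 and 22.4 CPM at 24 hpf, 8.56, 8.29 and 9.27 CPM at 48 hpf, and 2.79, 2.64 and 2.29 CPM at 96 hpf. The stages did not overlap, with log2 changes of -1.31 ± 0.13 (SE, edgeR adjusted p-value = 4.15e-07) and -1.72 ± 0.14 (adjusted p-value = 4.05e-08). atm, which encodes the kinase that answers breaks of both strands, was at 31.2, 26.5 and 28.5 CPM at 24 hpf, 18.7, 18.4 and 17.3 CPM at 48 hpf, and 12.6, 13.3 and 13.6 CPM at 96 hpf. Its lower level was called at the first step (-0.69 ± 0.11) and was short of the fold limit at the later one (-0.43 ± 0.11). Of the 7 genes of this role, 5 were called lower at the first step, and 3 (batch I17) and 2 (batch I10) at the later one.

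Homologous recombination genes had some of the largest declines. exo1, an exonuclease that resects broken ends, was at 5.06, 6.72 and 6.39 CPM at 24 hpf, 2.58, 2.67 and 2.20 CPM at 48 hpf, and 0.952, 0.855 and 0.589 CPM at 96 hpf in the batch I17 controls. brca2, which acts after resection in preparing strand exchange, was at 10.6, 9.49 and 12.1 CPM at 24 hpf, 3.60, 6.20 and 6.18 CPM at 48 hpf, and 1.90, 1.81 and 2.15 CPM at 96 hpf. In batch I10 it fell to 1.59, 0.985 and 1.65 CPM at 96 hpf, against 6.68, 6.78, 7.77 and 4.86 CPM at 48 hpf, the largest log2 decline of the list in that batch (-2.20 ± 0.22, adjusted p-value = 1.59e-06). Neither gene overlapped between successive stages. rad54l, a motor protein that remodels DNA during strand exchange, was at 32, 40.1 and 36.3 CPM at 24 hpf, 22.5, 17.4 and 19.2 CPM at 48 hpf, and 10.9, 8.38 and 8.63 CPM at 96 hpf, and both steps were called. rad51c, which acts in strand exchange, was at 3.74, 4.92 and 4.90 CPM at 24 hpf, 2.11, 2.09 and 2.20 CPM at 48 hpf, and 1.60, 1.81 and 1.59 CPM at 96 hpf. Only its first step was called in batch I17 (-1.10 ± 0.19), while the later step was called in batch I10 (-0.81 ± 0.20). Of the 13 recombination genes, 8 were called lower at the first step, and 7 (batch I17) and 11 (batch I10) at the later one.

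End joining genes declined less evenly. xrcc5 and xrcc6 encode the 2 Ku subunits that cap broken ends, and prkdc encodes the kinase DNA-PKcs that Ku recruits. xrcc5 was at 75.6, 99.1 and 82.7 CPM at 24 hpf, 46.5, 40.5 and 42.7 CPM at 48 hpf, and 28.2, 30.7 and 29.0 CPM at 96 hpf. xrcc6 was at 17.9, 12.3 and 15 CPM at 24 hpf, 5.93, 8.14 and 9.19 CPM at 48 hpf, and 4.64, 4.74 and 4.30 CPM at 96 hpf. prkdc was at 61.2, 51.7 and 55.0 CPM at 24 hpf, 32.3, 37.6 and 34.2 CPM at 48 hpf, and 20.1, 20.6 and 20.5 CPM at 96 hpf. These are the controls of batch I17, and in none of the 3 genes did their stages overlap. In the batch I10 controls xrcc6 and prkdc did not overlap either. There xrcc5 did, with 33.9 to 43.9 CPM at 48 hpf and 26.8 to 39.6 CPM at 96 hpf. Of the 6 end joining genes, 4 were called lower at the first step, and 3 (batch I17) and 1 (batch I10) at the later one. The MRE11-RAD50-NBN genes had 2 of 3 called lower at the first step, and 0 (batch I17) and 1 (batch I10) at the later one. Of all genes, 13.3%, 20.1% and 21.2% were called lower at these steps. The counts of 1 of 6 in batch I10 and 0 of 3 in batch I17 were thus no larger than the share of all genes.

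Base excision genes held the largest decline of the list. polb encodes DNA polymerase beta, which fills the gap left after a damaged base is cut out. It overlapped between the first stages, with 32, 33.5 and 37.0 CPM at 48 hpf and 40.4, 30.7 and 35.1 CPM at 24 hpf, and was at 6.88, 7.38 and 5.68 CPM at 96 hpf, a log2 change from 48 hpf of -2.33 ± 0.14 (adjusted p-value = 1.09e-09). The same step in batch I10 gave -1.75 ± 0.09. apex1, the endonuclease that cuts at lost bases, was at 285, 294 and 275 CPM at 24 hpf, 133, 149 and 149 CPM at 48 hpf, and 60.7, 63.2 and 65.2 CPM at 96 hpf. parp1, which marks strand breaks with poly(ADP-ribose), was at 226, 246 and 238 CPM at 24 hpf, 118, 119 and 122 CPM at 48 hpf, and 89.0, 79.6 and 82.4 CPM at 96 hpf. Both lay apart at each stage, and the later step of parp1 was short of the fold limit in batch I17 (-0.48 ± 0.11). Of the 7 genes, 4 were called lower at the first step, and 5 (batch I17) and 6 (batch I10) at the later one.

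Nucleotide excision repair genes were called in both directions at the later step. All 9 had lower means at the first step and 6 of 9 at the later one in each batch, with medians of -0.46, -0.31 (batch I17) and -0.40 (batch I10). Of the 9, 1 was called lower at the first step, and 2 (batch I17) and 3 (batch I10) at the later one. Of all genes, 13.3%, 20.1% and 21.2% were called lower, so these counts cannot be read as particular to the pathway. The only calls upward on the list were both here, where 23.2% (batch I17) and 24.4% (batch I10) of all genes were called higher. xpc, which recognizes distorted DNA, was at 20.5, 18.9 and 22.7 CPM at 24 hpf, 16.1, 14.7 and 14.6 CPM at 48 hpf, and 25.1, 22.7 and 25.6 CPM at 96 hpf in batch I17, and its later step was called (0.72 ± 0.11, adjusted p-value = 5.52e-05). In batch I10, xpc was at 16.5, 15.4 and 17.2 CPM at 96 hpf and 13.6, 13.1, 16.3 and 11 CPM at 48 hpf, which overlap, and was not called (0.28 ± 0.13). ddb2, which binds ultraviolet lesions ahead of xpc, was at 15.1, 13.5 and 15 CPM at 96 hpf and 5.35, 5.94, 5.12 and 6.04 CPM at 48 hpf in batch I10 (1.38 ± 0.11, adjusted p-value = 2.39e-07). In batch I17 it was at 8.72, 8.33 and 6.31 CPM at 96 hpf and 6.33, 4.96 and 6.77 CPM at 48 hpf, which overlap (0.40 ± 0.18, adjusted p-value = 0.066). The 2 rises were thus each called in 1 batch, and the difference between the batches was not tested. ercc1, part of the nuclease that cuts on the 5′ side of a lesion, was among the largest declines in batch I17. It was at 2.79, 3.42 and 2.57 CPM at 96 hpf against 9.31, 11.6 and 15.5 CPM at 48 hpf (-2.02 ± 0.19). Its fall was smaller in batch I10, with 7.06, 9.43 and 7.19 CPM at 96 hpf against 14.8, 11.3, 13.1 and 14.4 CPM at 48 hpf.

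In the Fanconi anaemia pathway all 4 genes were called lower at the first step. fancd2 and fanci encode the pair of proteins that the pathway ubiquitinates at a crosslink. fancd2 was at 59.1, 79.5 and 69.3 CPM at 24 hpf, 37.5, 37.1 and 35.2 CPM at 48 hpf, and 33.5, 30.0 and 32.6 CPM at 96 hpf. fanci was at 34.3, 45.4 and 38.6 CPM at 24 hpf, 19.7, 17.3 and 19.7 CPM at 48 hpf, and 12.2, 12.3 and 12.2 CPM at 96 hpf. The later step was called for 2 of the 4 genes in batch I17 and for 0 in batch I10. In mismatch repair, pms2, a subunit of the MutL endonuclease, fell to 0.869, 0.899 and 1.16 CPM at 48 hpf, against 2.23, 2.59 and 2.07 CPM at 24 hpf (-1.25 ± 0.27, adjusted p-value = 0.0012), and then to 0.430, 0.488 and 0.208 CPM at 96 hpf. In batch I10, pms2 was at 0.350, 0.169 and 0.682 CPM at 96 hpf against 1.95, 1.54, 2.08 and 1.12 CPM at 48 hpf (-2.0 ± 0.38).

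Markers of dividing cells fell at the same steps. Of 13 S phase genes tested, 13 were called lower in controls at 48 hpf against 24 hpf, 6 at 96 hpf against 48 hpf in batch I17 and 11 in batch I10, with median log2 changes of -1.17, -0.58 and -0.89. All 10 mitosis genes were called lower at each of the 3 steps (medians -0.92, -1.67 and -1.65), and the 9 neuron markers had a median of 1.54 at the first step. Their part in the decline of the repair genes was not tested. As each sample's median over its genes, relative to the mean over samples on the log2 scale, the repair genes lay between 0.61 and 0.67 in the batch I17 controls at 24 hpf, between -0.12 and -0.05 at 48 hpf and between -0.75 and -0.63 at 96 hpf, where the dividing-cell genes lay between 0.69 and 1.05, between -0.23 and -0.08 and between -1.21 and -1.12.

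**Figure D3:**
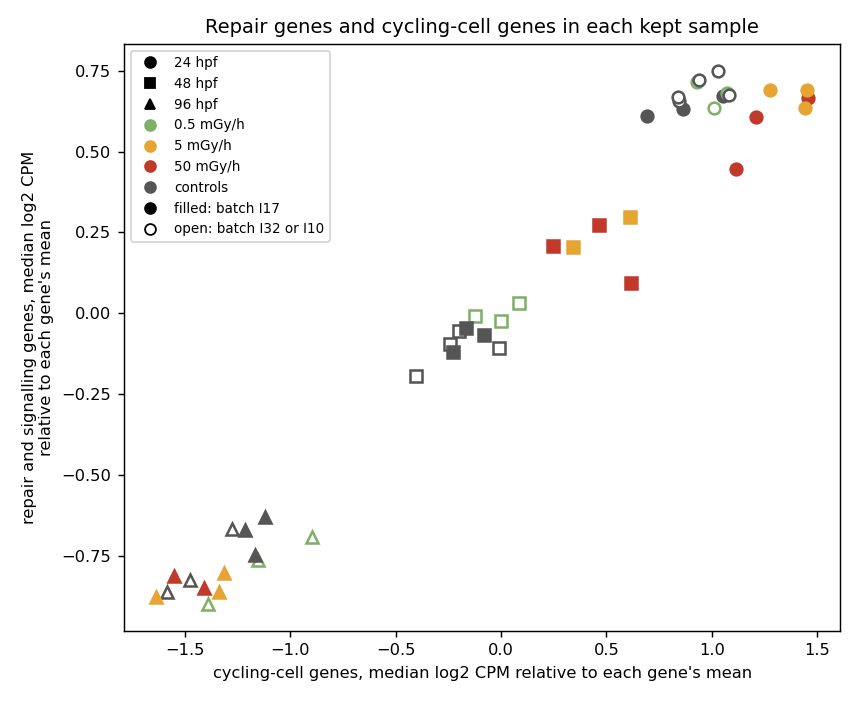
Each point is 1 of the 46 samples. The horizontal axis gives the sample's median log2 level of the S phase and mitosis genes and the vertical axis that of the 52 repair genes, both relative to the mean over samples, with stages and dose rates marked. The points run from the lower left at 96 hpf to the upper right at 24 hpf, and the samples at 5 and 50 mGy/h lie to the right of their controls at 24 and 48 hpf.

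Few repair genes were called between exposed samples and controls. Over the 9 comparisons, edgeR made 4 calls in 3 genes, all lower in exposed samples: pms2 and polb at 24 hpf and 5 mGy/h (2 of 52, where 9.89% of all genes were called), and xpc at 96 hpf at both 5 and 50 mGy/h (1 of 52 each, where 0.275% and 0.162% were called). That no gene was called higher holds for these settings only. At 24 hpf and 5 mGy/h, atrip, ddb1 and msh6 were called higher by DESeq2 and by edgeR without the filter on low counts, and ddb1 with the replicate number as a block (1.05, adjusted p-value = 0.0087). DESeq2 also called chek2 higher at 24 hpf and 50 mGy/h, and its 4 calls at each of these dose rates at 48 hpf were all higher. No share of all genes is given for these other settings, so their calls cannot be read as particular to repair genes. The exposed groups also showed a small shift of most of the list at 48 hpf, at 5 and 50 mGy/h.

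**Figure D4:**
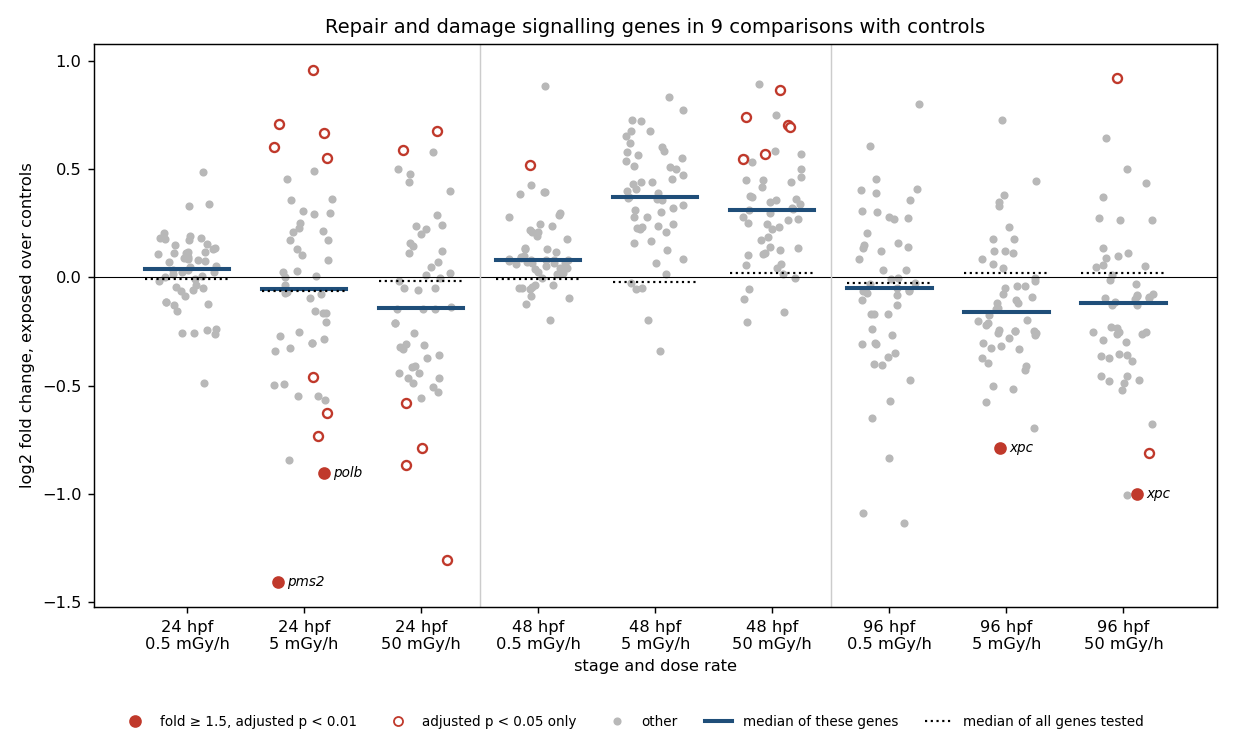
Log2 fold changes of the repair genes (points), exposed over controls, in 9 comparisons by stage and dose rate. Filled red points passed a fold of 1.5 and an adjusted p-value of 0.01, open red points only an adjusted p-value of 0.05, blue bars give the median of the repair genes, and dotted bars that of all genes tested. The blue bars lie above the dotted ones at 48 hpf at 5 mGy/h (0.37) and 50 mGy/h (0.31), and the filled points are pms2, polb and xpc.

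At 48 hpf the repair genes tended to be higher in exposed larvae. At 5 mGy/h, 47 of 52 genes had a higher mean level, with a median log2 change of 0.37 against -0.02 over all genes tested, and in 32 genes both exposed samples lay above all 3 controls. At 50 mGy/h the figures were 47 of 52, a median of 0.31 against 0.02, and 13 genes with all 3 exposed samples above all 3 controls. No gene lay below all controls at either dose rate. The share of all genes with such gaps was not computed, and the smaller number of exposed samples at 5 mGy/h makes a gap easier to meet. Gene by gene the changes did not reach the limit: edgeR called 0 of 52 at 5 mGy/h, where 0.157% of all genes were called, and 0 at 50 mGy/h, where 1.53% were called. At an adjusted p-value under 0.05 and any fold, 0 and 6 of 52 passed, against 1.61% and 8.49% of all genes. At an unadjusted p under 0.05, 20 and 18 passed, and DESeq2 called 4 higher at each dose rate (msh6, parp1, parp2 and rad50 at 5 mGy/h, chek1, exo1, msh6 and parp2 at 50 mGy/h). No share of all genes is given for these counts, so they cannot be read as particular to repair genes. Leaving out each sample in turn gave 46 to 50 higher genes at 5 mGy/h and 43 to 48 at 50 mGy/h, and the count of calls reached 7 at 50 mGy/h without 50 mGy/h replicate 8 (blm, chek1, msh6, parp1, parp2, xrcc1 and xrcc6), where it was 1 (parp1) at 5 mGy/h. The share of all genes called in that fit is not given either. Another library at 5 mGy/h, replicate 8, which the clustering of the study removed, had 25 genes above all 3 controls and 16 below all of them, against 41 and 38 above and 3 and 0 below in the pair kept. Among these, msh6 (63.9 CPM), xrcc5 (29.2 CPM) and fancd2 (26.9 CPM) lay below all controls, and chek1 (13.0 CPM) and parp2 (18.1 CPM) above them. With that library included, 44 of 52 genes were higher at 5 mGy/h, and the median was 0.31. Values below are those of the libraries kept.

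Most roles took part in the shift. The medians at 5 and 50 mGy/h were 0.51 and 0.37 for recombination (11 and 13 of 13 higher), 0.47 and 0.27 for the MRE11-RAD50-NBN complex, 0.40 and 0.28 for signalling (7 and 6 of 7 higher), 0.48 and 0.44 for end joining (6 of 6 higher at both), 0.50 and 0.30 for base excision (6 of 7 at both), 0.30 and 0.28 for the Fanconi anaemia pathway (3 of 4 at both), and 0.53 and 0.63 for mismatch repair. Nucleotide excision repair genes had medians of 0.16 and 0.14, with 8 and 7 of 9 higher.

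The 6 genes past an adjusted p-value of 0.05 at 50 mGy/h were parp2, chek1, exo1, msh6, xrcc5 and parp1. Of all genes 8.49% passed that limit, so the share on the list was near that of all genes. parp2, a second poly(ADP-ribose) polymerase, was at 13.8 and 15 CPM at 5 mGy/h and 14.2, 16.9 and 11.7 CPM at 50 mGy/h, against 8.44, 8.41 and 9.35 CPM in controls. chek1 was at 12.5 and 13.4 CPM at 5 mGy/h and 16.2, 14.6 and 10.9 CPM at 50 mGy/h, against 8.56, 8.29 and 9.27 CPM in controls. In both genes every exposed sample kept lay above every control, and the log2 changes at 50 mGy/h were 0.74 ± 0.16 (adjusted p-value = 0.020) and 0.70 ± 0.17 (adjusted p-value = 0.025). exo1 was at 5.29 and 3.57 CPM at 5 mGy/h and 4.71, 3.84 and 4.75 CPM at 50 mGy/h, against 2.58, 2.67 and 2.20 CPM in controls (0.87 ± 0.21 at 50 mGy/h, adjusted p-value = 0.028). msh6, which recognizes mispaired bases, was at 159 and 119 CPM at 5 mGy/h and 152, 105 and 132 CPM at 50 mGy/h, against 85.5, 78.7 and 81.0 CPM in controls (0.69 ± 0.17 at 50 mGy/h, adjusted p-value = 0.032). These groups too did not overlap.

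xrcc5 was at 70.2 and 57.4 CPM at 5 mGy/h and 64.0, 52.7 and 71.6 CPM at 50 mGy/h, against 46.5, 40.5 and 42.7 CPM in controls (0.57 ± 0.16 at 50 mGy/h, adjusted p-value = 0.045). parp1 was at 207 and 168 CPM at 5 mGy/h and 191, 168 and 154 CPM at 50 mGy/h, against 118, 119 and 122 CPM in controls (0.55 ± 0.15 at 50 mGy/h, adjusted p-value = 0.047). Both were higher in every exposed sample kept. At 5 mGy/h the lowest p-values were those of rad50, which ties broken ends together, and parp2. rad50 was at 16.4 and 14.7 CPM at 5 mGy/h and 9.48, 12.5 and 11.4 CPM at 50 mGy/h, against 9.34, 10.1 and 8.92 CPM in controls, a log2 change of 0.72 ± 0.17 at 5 mGy/h (adjusted p-value = 0.056).

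The other genes followed per sample were less even at 48 hpf. xrcc6 was at 11.5 and 13.2 CPM at 5 mGy/h and 14.3, 16.1 and 8.11 CPM at 50 mGy/h, against 5.93, 8.14 and 9.19 CPM in controls. atm was at 21.9 and 20.2 CPM at 5 mGy/h and 29.4, 22.3 and 16.8 CPM at 50 mGy/h, against 18.7, 18.4 and 17.3 CPM in controls. In both, 1 sample at 50 mGy/h, replicate 8, lay within or below the controls. prkdc was at 46.1 and 39.1 CPM at 5 mGy/h and 52.6, 42.3 and 34.0 CPM at 50 mGy/h, against 32.3, 37.6 and 34.2 CPM in controls. rad51c was at 3.90 and 2.92 CPM at 5 mGy/h and 2.92, 2.68 and 2.52 CPM at 50 mGy/h, against 2.11, 2.09 and 2.20 CPM in controls, with no overlap. fancd2 was at 53.2 and 45.0 CPM at 5 mGy/h and 48.0, 38.6 and 46.6 CPM at 50 mGy/h, against 37.5, 37.1 and 35.2 CPM in controls, also with no overlap. fanci was at 26.1, 22.2 and 22.4 CPM at 50 mGy/h, against 19.7, 17.3 and 19.7 CPM in controls, and did not overlap either. ddb2 and xpc overlapped with their controls at 50 mGy/h, as xrcc6, atm and prkdc did. So did brca2 (4.63, 9.32 and 2.88 CPM, against 3.60, 6.20 and 6.18 CPM) and rad54l (24.7, 20.7 and 28.6 CPM, against 22.5, 17.4 and 19.2 CPM). apex1 overlapped too (220, 154 and 145 CPM, against 133, 149 and 149 CPM).

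**Figure D5:**
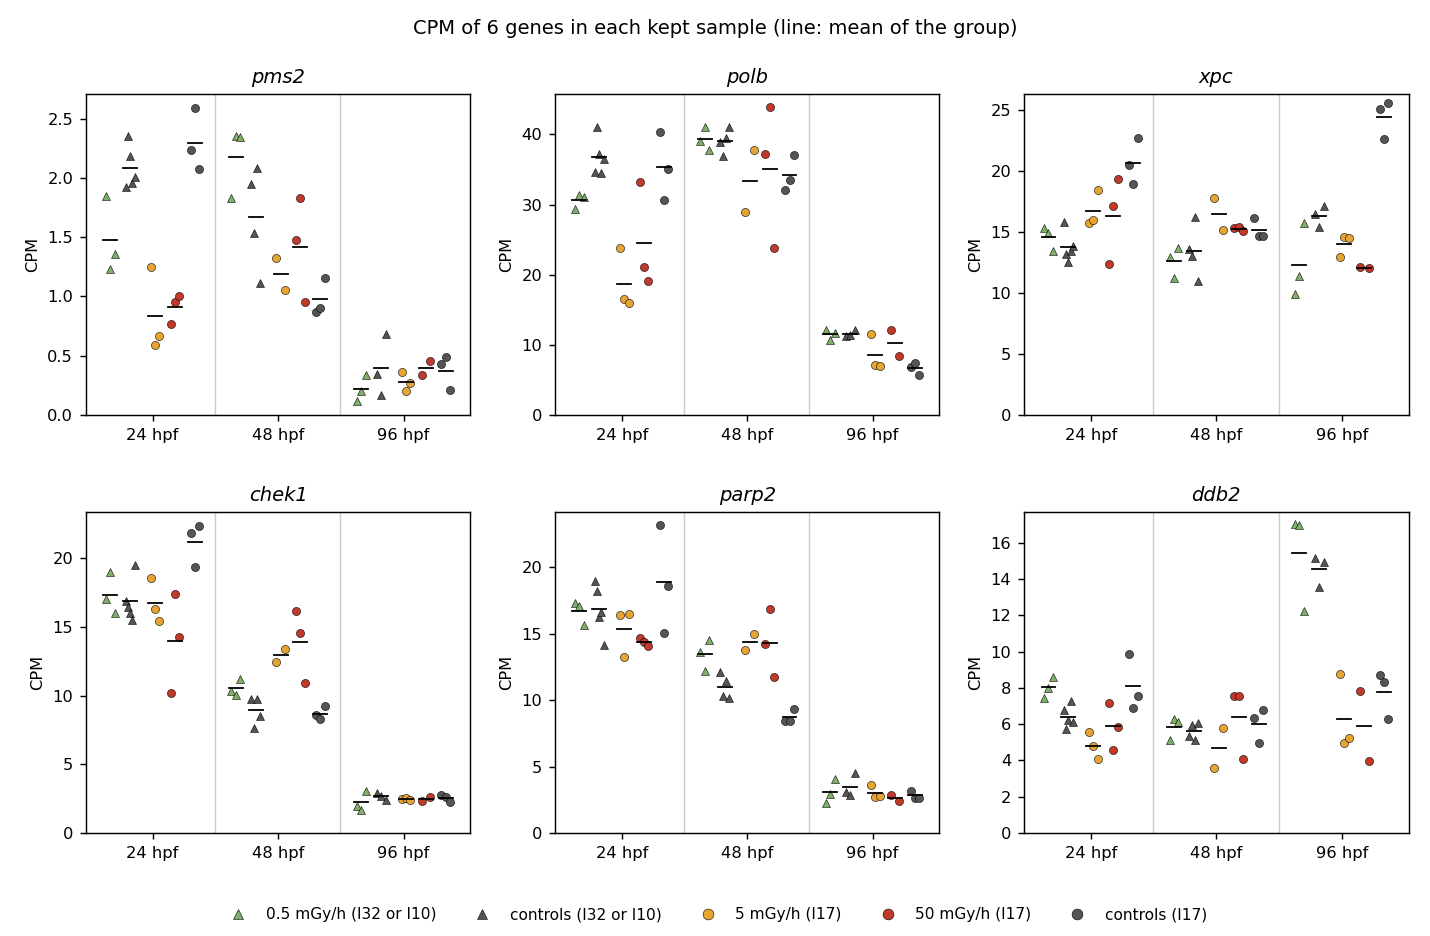
CPM of pms2, polb, xpc, chek1, parp2 and ddb2 (vertical axes, each starting at 0) in each of the 46 samples (points), with group means (lines), by stage, batch and dose rate, exposed groups left of their controls. At 48 hpf the samples at 5 and 50 mGy/h lie above their controls for chek1 and parp2, at 24 hpf pms2 and polb lie below them at 5 mGy/h, and at 96 hpf xpc lies below them at both dose rates.

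Dividing-cell genes were also higher in the exposed larvae at 48 hpf. All 13 S phase genes tested and all 10 mitosis genes had higher means at both dose rates, with medians of 0.75 (5 mGy/h) and 0.79 (50 mGy/h) for S phase and 0.65 and 0.61 for mitosis. The summed level of the 14 S phase genes on the list was 3784 to 4689 CPM at 5 mGy/h and 3117 to 5193 CPM at 50 mGy/h, against 2309 to 2859 CPM in controls, and no gene of the list was at 0. The 9 neuron markers were lower at both dose rates (medians -0.60 and -0.84), and their summed level was 602.8 to 606.1 CPM at 5 mGy/h and 454.3 to 636.2 CPM at 50 mGy/h, against 860.1 to 967.0 CPM in controls. The summed level of the 52 repair genes was 1414 to 1613 CPM at 5 mGy/h and 1333 to 1579 CPM at 50 mGy/h, against 1124 to 1204 CPM in controls. The part of these cell markers in the shift of the repair genes was not tested.

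At 24 hpf the repair genes moved in both directions. At 5 mGy/h, 25 of 52 had higher means, the median log2 change was -0.05, 2 genes were called lower and 0 higher, against 9.89% of all genes called. At an adjusted p-value under 0.05, 5 genes were higher and 5 lower, against 25% of all genes, so the share on the list was no larger than that of all genes. At 50 mGy/h, edgeR called 0 of 52, against 5.88% of all genes, and 2 were higher and 4 lower at an adjusted p-value under 0.05, against 19.5%. More genes were lower than higher there. Leaving out each sample in turn gave 15 to 24 genes with higher means and medians between -0.17 and -0.06. The median over all genes, with no sample left out, was -0.02. An unadjusted p under 0.05 was reached by 17 genes at each dose rate, and DESeq2 called 5 (3 higher) and 3 (1 higher). No share of all genes is given for these counts. For edgeR at an adjusted p-value under 0.05 and any fold, a limit stricter than the unadjusted p, the share was already 25% and 19.5%.

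pms2 had the lowest adjusted p-value of the list at both dose rates. It was at 1.25, 0.588 and 0.665 CPM at 5 mGy/h and 0.771, 0.950 and 1.0 CPM at 50 mGy/h, against 2.23, 2.59 and 2.07 CPM in controls, with no overlap. The log2 changes were -1.41 ± 0.31 (adjusted p-value = 0.0061) at 5 mGy/h, a fold of 0.378, and -1.31 ± 0.30 (adjusted p-value = 0.010, just short of the limit) at 50 mGy/h. At 24 hpf in batch I32, pms2 was at 1.85, 1.24 and 1.35 CPM at 0.5 mGy/h against 1.92, 2.36, 2.18, 1.95 and 2.01 CPM in controls. It was not called (-0.49 ± 0.20, adjusted p-value = 0.28). These kept samples did not overlap, but the removed ones reversed the order, at 3.19, 2.42 and 2.46 CPM at 0.5 mGy/h and 1.22 CPM in a control. In batch I10 at 24 hpf pms2 overlapped, at 3.65, 2.97 and 2.23 CPM at 0.5 mGy/h against 3.08 and 2.59 CPM in controls. polb was at 23.8, 16.5 and 15.9 CPM at 5 mGy/h and 33.3, 21.1 and 19.1 CPM at 50 mGy/h, against 40.4, 30.7 and 35.1 CPM in controls, and only the samples at 5 mGy/h all lay below the controls (-0.90 ± 0.22, adjusted p-value = 0.0086). Both calls at 5 mGy/h were at the edge of the limit. pms2 was called in 4 and polb in 3 of the 9 fits that left out 1 sample, with adjusted p-values between 0.0032 and 0.038 for pms2 and between 0.00096 and 0.052 for polb. Both calls were lost without 5 mGy/h replicate 2 or 4, or without any 1 of the 3 controls, and that of polb also without 50 mGy/h replicate 3. With the replicate number as a block, pms2 was no longer called at 5 mGy/h (-1.16, adjusted p-value = 0.050).

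Among recombination and checkpoint genes, brca2, rad51d and chek1 were lower at 50 mGy/h. brca2 was at 9.50, 5.68 and 5.37 CPM at 5 mGy/h and 5.17, 6.58 and 5.58 CPM at 50 mGy/h, against 10.6, 9.49 and 12.1 CPM in controls (-0.87 ± 0.22 at 50 mGy/h, adjusted p-value = 0.014). rad51d, which acts with rad51c, was at 2.37, 2.16 and 2.23 CPM at 5 mGy/h and 2.62, 1.52 and 1.56 CPM at 50 mGy/h, against 3.19, 3.38 and 3.40 CPM in controls (-0.79 ± 0.24 at 50 mGy/h, adjusted p-value = 0.035). chek1 was at 18.6, 16.3 and 15.4 CPM at 5 mGy/h and 10.2, 17.4 and 14.3 CPM at 50 mGy/h, against 21.9, 19.4 and 22.4 CPM in controls (-0.58 ± 0.18 at 50 mGy/h, adjusted p-value = 0.034). At 50 mGy/h none of these genes overlapped with its controls. atrip, the partner of the kinase ATR, went the other way, at 45.0, 60.2 and 56.9 CPM at 5 mGy/h and 47.5, 47.2 and 53 CPM at 50 mGy/h, against 25.1, 40.5 and 33.8 CPM in controls (0.71 ± 0.18 at 5 mGy/h, adjusted p-value = 0.013). chek2, the checkpoint kinase downstream of ATM, was at 5.55, 5.73 and 7.79 CPM at 5 mGy/h and 6.63, 5.79 and 7.45 CPM at 50 mGy/h, against 4.13, 4.24 and 4.22 CPM in controls (0.68 at 50 mGy/h, adjusted p-value = 0.023).

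The damage-recognition genes ddb1 and ddb2, whose products form 1 complex, moved apart at 5 mGy/h. ddb1 was at 295, 373 and 416 CPM at 5 mGy/h and 211, 252 and 364 CPM at 50 mGy/h, against 135, 242 and 181 CPM in controls (0.96 ± 0.24 at 5 mGy/h, adjusted p-value = 0.011). ddb2 was at 5.55, 4.80 and 4.09 CPM at 5 mGy/h and 7.17, 4.59 and 5.85 CPM at 50 mGy/h, against 9.87, 6.86 and 7.53 CPM in controls (-0.73 ± 0.21 at 5 mGy/h, adjusted p-value = 0.021). Neither overlapped with its controls at 5 mGy/h, and both did at 50 mGy/h. msh6 and xrcc5 were also higher (0.67 ± 0.19 and 0.55 ± 0.18) and ercc4 lower (-0.46 ± 0.15) at 5 mGy/h, at adjusted p-values of 0.021, 0.034 and 0.040. apex1, at 263, 291 and 256 CPM at 5 mGy/h and 289, 278 and 273 CPM at 50 mGy/h, against 285, 294 and 275 CPM in controls, overlapped throughout.

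Marker lists of other cells also differed at 24 hpf in batch I17. The paraxial mesoderm list, genes of the forming trunk that are switched off as somites are completed, summed to 44.73 to 61.77 CPM at 5 mGy/h and 49.03 to 69.71 CPM at 50 mGy/h, against 20.19 to 20.98 CPM in their controls, whereas the 24 hpf controls of batch I32 held 32.93 to 55.44 CPM. Of its 6 genes tested, her1, her7, msgn1, tbx16 and tbx6 were called higher at both dose rates and dlc lower, and the median was 2.48 at 5 mGy/h and 2.72 at 50 mGy/h (mespba was below the filter on low counts). The S phase genes were higher (medians 0.69 and 0.57, with 8 and 6 of 13 at an adjusted p-value under 0.05), and their sum was 8344 to 9534 CPM at 5 mGy/h and 7110 to 9429 CPM at 50 mGy/h, against 4285 to 6672 CPM in the batch I17 controls and 5462 to 7606 CPM in those of batch I32. The germ cell list summed to 13.6 to 16.4 CPM at 5 mGy/h and 12.8 to 14.7 CPM at 50 mGy/h, against 7.44 to 9.04 CPM in the batch I17 controls and 5.92 to 8.27 CPM in those of batch I32. The paraxial mesoderm sums of the batch I17 controls lay below those of the other groups given. The germ cell sums of the exposed groups lay above those of both sets of controls. No test was run between the batches. The mitosis genes summed to 2419 to 2629 CPM at 5 mGy/h, above the 2040 to 2264 CPM of the batch I17 controls. At 50 mGy/h they summed to 1815 to 2720 CPM, which overlaps those controls. The neuron markers were lower (medians -0.39 and -0.61). The part of these differences in the changes of the repair genes was not tested.

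At 96 hpf, xpc was the only repair gene called, and it was lower at both dose rates. It was at 12.9, 14.6 and 14.6 CPM at 5 mGy/h and 12.1 and 12.1 CPM at 50 mGy/h, against 25.1, 22.7 and 25.6 CPM in controls, with a wide gap between the groups. The log2 changes were -0.79 ± 0.11 (adjusted p-value = 0.0051, fold 0.579) and -1.0 ± 0.12 (adjusted p-value = 0.0060, fold 0.500). The background was 0.275% of all genes called at 5 mGy/h and 0.162% at 50 mGy/h. The call was kept in 3 of the 8 fits that left out 1 sample at each dose rate, with adjusted p-values of 0.0075 to 0.051 at 5 mGy/h and 0.00087 to 0.16 at 50 mGy/h. It was lost at both without control replicate 9 or 10, 5 mGy/h replicate 11 or 50 mGy/h replicate 10, at 5 mGy/h also without its replicate 9, and at 50 mGy/h also without its replicate 11. The log2 change stayed between -0.85 and -0.72 at 5 mGy/h and between -1.06 and -0.95 at 50 mGy/h. With the replicate number as a block the call was lost at 50 mGy/h (-0.96, adjusted p-value = 0.015) and kept at 5 mGy/h. The clustering of the study marks different samples as the outlier at this stage, and with 5 mGy/h replicate 9 left out in place of 50 mGy/h replicate 9 the adjusted p-values were 0.028 at 5 mGy/h and 0.011 at 50 mGy/h. The rise of xpc between 48 and 96 hpf in the batch I17 controls, given above, rests on the same control samples, and the level of the 96 hpf controls of batch I10 (15.4 to 17.2 CPM) was nearer to that of the exposed larvae. In batch I10, xpc was at 9.91, 11.4 and 15.7 CPM at 0.5 mGy/h against 16.5, 15.4 and 17.2 CPM in controls, which overlap.

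Most other repair genes were slightly lower at 96 hpf. At 5 mGy/h, 14 of 52 had higher means (median -0.16), and at 50 mGy/h 16 of 52 (median -0.12). At an adjusted p-value under 0.05, xpc alone passed at 5 mGy/h, against 1.12% of all genes, and 2 lower and 1 higher at 50 mGy/h, against 7.77%. rad18, the ubiquitin ligase that lets replication pass damaged bases, was at 4.75, 6.40 and 5.58 CPM at 5 mGy/h and 4.31 and 4.67 CPM at 50 mGy/h, against 9.58, 7.11 and 7.14 CPM in controls (-0.81 ± 0.19 at 50 mGy/h, adjusted p-value = 0.028). ercc1 was at 6.42, 3.67 and 4.27 CPM at 5 mGy/h and 6.35 and 4.64 CPM at 50 mGy/h, against 2.79, 3.42 and 2.57 CPM in controls (0.92 ± 0.25 at 50 mGy/h, adjusted p-value = 0.044). Neither overlapped with its controls. fancd2, second by p-value at 5 mGy/h, was at 21.2, 26.2 and 23.4 CPM at 5 mGy/h and 23.3 and 25.2 CPM at 50 mGy/h, against 33.5, 30.0 and 32.6 CPM in controls (-0.43 ± 0.11 at 5 mGy/h, adjusted p-value = 0.080). chek1 overlapped between all groups, at 2.50, 2.56 and 2.39 CPM at 5 mGy/h and 2.37 and 2.65 CPM at 50 mGy/h, against 2.79, 2.64 and 2.29 CPM in controls. The S phase genes had medians of -0.36 and -0.41 at 96 hpf. The 10 mitosis genes summed to 338.8 to 387.1 CPM at 5 mGy/h and 358.3 to 373.7 CPM at 50 mGy/h. Their controls were at 359.1 to 397.5 CPM, which overlap. The part of these lists in the changes of the repair genes was not tested.

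At 0.5 mGy/h no repair gene was called at any stage by edgeR or by DESeq2. The background of edgeR calls was 0.0694% of all genes at 24 hpf, 0.0505% at 48 hpf and 0% at 96 hpf. An unadjusted p under 0.05, for which no share of all genes is given, was reached by 5, 7 and 6 genes. At an adjusted p-value under 0.05 the counts were 0, 1 and 0, against 0.849%, 2.09% and 0.00507% of all genes. Higher means were found in 33 of 52, 41 of 52 and 21 of 51 genes, with medians of 0.04, 0.08 and -0.05 (palb2 was below the filter on low counts at 96 hpf). The gene that passed was rad51d at 48 hpf, at 5.13, 5.17 and 5.27 CPM at 0.5 mGy/h against 3.80, 3.58, 3.59 and 3.59 CPM in controls, a log2 change of 0.52 ± 0.12 (adjusted p-value = 0.045). xrcc5 was next at that stage, at 53.3, 54.9 and 44.4 CPM at 0.5 mGy/h against 39.8, 33.9, 38.0 and 43.9 CPM in controls (0.40 ± 0.10, adjusted p-value = 0.060). Neither overlapped. At 24 hpf the lowest p-values were those of polb, at 29.4, 31.4 and 31.1 CPM at 0.5 mGy/h against 34.7, 41.1, 37.2, 34.6 and 36.6 CPM in controls (-0.26 ± 0.09, adjusted p-value = 0.20), and ddb2, at 7.46, 8.0 and 8.59 CPM against 6.75, 5.71, 6.20, 7.29 and 6.13 CPM (0.33 ± 0.12, adjusted p-value = 0.21). At 96 hpf they were those of ddb1, at 342, 235 and 183 CPM at 0.5 mGy/h against 120.4, 172 and 145 CPM in controls (0.80 ± 0.24, adjusted p-value = 0.22), and mdc1, at 0.916, 0.977 and 2.32 CPM against 3.85, 2.05 and 3.52 CPM (-1.13 ± 0.40, adjusted p-value = 0.22). These 4 genes did not pass the test, and mdc1, a scaffold of damage foci, overlapped between the groups.

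The 2 higher dose rates were compared directly within batch I17, and no repair gene was called. edgeR and DESeq2 called 0 of 52 at 24, 48 and 96 hpf, against 0%, 0% and 0.0589% of all genes, and 0, 2 and 1 genes reached an unadjusted p under 0.05. The median log2 differences, 50 over 5 mGy/h, were -0.07, -0.02 and -0.02. The lowest p-values belonged to fancl at 96 hpf (0.83 ± 0.28), to rad50 at 48 hpf (-0.46 ± 0.17) and to mdc1 at 48 hpf (-0.54 ± 0.21), at adjusted p-values of at least 0.9995.

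Whether the effect of irradiation differed between stages was tested by an interaction contrast fitted over all batch I17 samples. At 50 mGy/h the effect at 48 hpf minus that at 24 hpf was called for 2 of 52 genes, against 1.28% of all genes: chek1 (1.28, adjusted p-value = 0.0016) and parp2 (1.11, adjusted p-value = 0.0055). chek1 was lower than in controls at 24 hpf (-0.58) and higher at 48 hpf (0.70), and parp2 had log2 changes of -0.37 and 0.74. The call of chek1 was kept in all 25 fits that left out 1 sample and that of parp2 in 16 of 25, and the count was 8 without 48 hpf 50 mGy/h replicate 8, which added atm, blm, pms2, prkdc, rad51d and xrcc6. The share of all genes in that fit is not given, so the count of 8 cannot be read as particular to repair genes. At 5 mGy/h the same contrast was called for 0 genes, against 0.778% of all genes. With no share of all genes given, 16 reached an unadjusted p under 0.05 and DESeq2 called 1. An adjusted p-value of 0.05 was passed by 3: parp2 (1.01), chek1 (0.90) and pms2 (1.68).

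The effect at 96 hpf minus that at 24 hpf was called for 8 of 52 genes at 5 mGy/h, against 12% of all genes. ercc1 (1.26) and polb (1.25) had a more positive effect at 96 hpf, and msh6 (-1.08), atrip (-0.97), parp1 (-0.81), xrcc5 (-0.79), fancd2 (-0.77) and ercc2 (-0.69) a more negative one. polb, for example, was at log2 changes of 0.38 at 96 hpf and -0.90 at 24 hpf, and msh6 at -0.37 and 0.67. The count depended on single samples: it was 0 without 24 hpf 5 mGy/h replicate 2 or 4, without 24 hpf control replicate 1 or 4, without 96 hpf 5 mGy/h replicate 10 and without 96 hpf control replicate 10, and up to 10 otherwise. Shares of all genes are not given for these refits. At 50 mGy/h edgeR called 0 genes, against 9.14% of all genes. With no share of all genes given, 22 reached an unadjusted p under 0.05 and DESeq2 called 3. The same 24 hpf controls enter every one of these contrasts.

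Repair genes off the list also tended to be higher at 48 hpf after exposure, and many were called lower at the stage steps. In 73 genes not on the list but from the same pathways, 58 of 69 tested at 48 hpf were higher at 5 mGy/h (median 0.32, 5 at an adjusted p-value under 0.05) and 54 of 69 at 50 mGy/h (median 0.30, 2 called). Of all genes, 1.61% passed that adjusted p-value at 5 mGy/h and 1.53% were called at 50 mGy/h. The limits differ between the 2 dose rates, so these 2 counts cannot be set against each other. In controls, 35, 34 and 31 of 70 were called lower at the 3 stage steps, against 13.3%, 20.1% and 21.2% of all genes. aptx, which removes AMP left on broken ends, was called higher at 24 hpf at 5 mGy/h (0.84 ± 0.19) and 50 mGy/h (0.89 ± 0.19), where 9.89% and 5.88% of all genes were called.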

How the data were processed

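RNA from whole zebrafish embryos and larvae was sequenced by the authors as stranded read pairs. They aligned the trimmed reads to GRCz11 with STAR (Ensembl release 95) and deposited raw counts per gene, without normalization. The column of the strand holding most reads was used, and lines that name no gene (22.5% to 34.6% of read pairs) were left out. The 46 samples kept in the clustering of the study were compared. The 7 it removed and 5 in neither panel entered alternatives only.

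The genes and lists were chosen with earlier results of these data known. Counts were fitted in R 4.3.3 with edgeR 4.0.16 (filterByExpr with a minimum count of 10 and a total of 15, TMM, glmQLFit and glmQLFTest) by stage and batch, with all batch I17 groups of a stage in a single fit. P-values were adjusted by Benjamini-Hochberg over all genes. Interactions were called at an adjusted p-value under 0.01 with no fold limit. Shares of all genes are those of these edgeR fits at adjusted p-values. None is given for counts at an unadjusted p, with DESeq2 or under other alternatives. Values after ± are standard errors of the log2 fold change.

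Values per sample were given for genes called in an exposure comparison, the 2 lowest p-values of each, the 3 largest called rises and falls of each stage step, and 14 genes fixed by role. Off the list, genes called in at least 2 exposure comparisons were named, and a further list fixed for this purpose is not reported here. Other genes past an adjusted p-value of 0.05, and those of the comparison of 50 with 5 mGy/h, were named after their values were seen.

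Alternatives were DESeq2 1.42.0, its size factors, no filter, counts without regard to strand, an adjusted p-value of 0.05, all mapped samples, another outlier at 96 hpf, other batches, a replicate block and each replicate left out. The fits were tested on simulated data. Sequences and genome positions were not used here.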

Additional observations from a re-analysis of the deposited data

Results flagged for a closer look

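In groups of 4 or 5 controls, 8 of 104 sets of values held 1 sample far from the others, where chance gives about 5 percent. The same libraries enter the sets of many genes, so the sets are not independent. Whether 8 is more than chance gives cannot be decided from that rate. At 24 hpf in batch I32, brca2 was at 11.3 CPM in control replicate 3 and at 8.25 to 9.06 CPM in the others. The other 7 were in the controls of batch I10 at 48 hpf. Replicate 5 was high for rad51d (3.80 CPM, others 3.58 to 3.59) and rad18 (10.8 CPM, others 8.30 to 8.46) and low for rad52 (1.5 CPM, others 1.77 to 1.82) and xpa (3.33 CPM, others 3.99 to 4.03). Replicate 7 was high for brip1 (4.33 CPM, others 3.14 to 3.33). Replicate 8 was low for nbn (8.08 CPM, others 9.50 to 9.77) and atm (15.8 CPM, others 18.1 to 18.6).

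The effect of irradiation differed between stages for 10 gene and dose rate pairs by the edgeR interaction test. At 50 mGy/h, 48 hpf minus 24 hpf, 2 of 52 were called, against 1.28% of all genes, and the log2 differences were 1.28 for chek1 (adjusted p-value = 0.0016) and 1.11 for parp2 (0.0055). At 5 mGy/h, 96 hpf minus 24 hpf, 8 of 52 were called, against 12% of all genes, so the share is near that of all genes, and the count fell to 0 without any 1 of 6 samples. The log2 differences were 1.26 for ercc1 (0.0087), 1.25 for polb (0.0088), -1.08 for msh6 (0.0047), -0.97 for atrip (0.0098), -0.81 for parp1 (0.0067), -0.79 for xrcc5 (0.0098), -0.77 for fancd2 (0.0078) and -0.69 for ercc2 (0.0069).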

How the results depend on the processing

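The counts of genes called at the stage steps stayed within 1.5 times under the alternatives run, apart from the step from 24 to 48 hpf with batch I10 in place of I17 (19 calls against 30), and leaving out each replicate gave 27 to 31, 18 to 24 and 25 to 28 calls for its 3 steps. Counts of called genes after exposure were small and moved with the settings, in 28 of 112 recomputed counts that left out no replicate. With an adjusted p-value of 0.05 and no fold limit they were 1 at 0.5 mGy/h and 48 hpf, 10 (5 mGy/h) and 6 (50 mGy/h) at 24 hpf, 6 and 3 for 50 mGy/h at 48 and 96 hpf, 3 and 13 for the 5 mGy/h effect (48 and 96 hpf against 24 hpf) and 5 and 12 for that of 50 mGy/h. With DESeq2 they were 5 and 3 for the 24 hpf pair of dose rates, 4 and 4 for the 48 hpf pair, 2 for 50 mGy/h at 96 hpf, 1 for the 5 mGy/h effect at 48 hpf, and 4 and 3 for the 50 mGy/h effect. With no filter they were 5 and 2 for the 24 hpf pair, 2 for 50 mGy/h at 96 hpf, and 4 and 2 for the 5 and 50 mGy/h effects at 96 hpf. With the other 96 hpf outlier they were 0 and 0 at 96 hpf and 4 for the 5 mGy/h effect at 96 hpf. With all mapped samples the 5 mGy/h effect gave 1 and 0. The causes were not tested. Leaving out 1 replicate gave, for 5 and then 50 mGy/h, 0 to 6 and 0 to 2 calls at 24 hpf, 0 to 1 and 0 to 7 at 48 hpf, 0 to 1 and 0 to 3 at 96 hpf. It gave 0 to 1 and 0 to 10 for the 5 mGy/h effect at 48 and 96 hpf, and 1 to 8 and 0 to 5 for the 50 mGy/h effect. With the 3 samples at 0.5 mGy/h and 2 controls of batch I10 at 24 hpf alone, ddb2 turned to -0.36. Samples sharing a replicate number did not consistently deviate together (correlations from -0.49 to 0.58). Deviations from the means of such small groups cannot decide whether the numbers pair them. With the replicate number as a block, xpc had a log2 change of -0.96 (adjusted p-value 0.015) for 50 mGy/h at 96 hpf, which leaves 0 calls there, and at 24 hpf and 5 mGy/h pms2 was lost (-1.16, 0.050) and ddb1 gained as a higher call (1.05, 0.0087), so that the count there stayed at 2. No other count of calls moved. Other scalings shifted the median of all genes by at most 0.053. Precision was lowest for palb2, xrcc2 and pms2, with few counts per library.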
